A study of Mus musculus with 3 samples.

Results

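Zbtb7b, Gata3, Runx3, Tox and Id2, 5 genes with known roles when a thymocyte becomes a CD4 or a CD8 T cell, were followed among 6795 genes measured in mouse thymocytes. They were found by gene symbol among probes that carry 1 symbol each, and were covered by 6 probes, 2 of them for Zbtb7b. On 3 spotted 2-colour arrays of one print, CD69hi thymocytes purified from wild-type B6 mice were compared with Zap70-/- thymocytes that had not been separated, so that each array gave 1 log ratio per probe. Arrays 1 and 2 had the CD69hi sample in Cy3, and array 3 had it in Cy5. Strain and age of the Zap70-/- mice, age of the wild-type mice and the number of mice behind each RNA are not stated in the labels. The p-values therefore cover only array-to-array spread, possibly technical, and the number of arrays, 3, limits the precision. The titles call the Zap70-/- RNA CD69lo. Genotype and purification differ between the RNAs together with CD69, so these cannot be told apart. In pooled RNA, a larger share of cells with a transcript and more of it per cell cannot be told apart either.

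Immature CD4+CD8+ (double-positive) thymocytes raise CD69 when their T cell receptor (TCR) is engaged, and the kinase Zap70 carries that signal. Cells selected on MHC class II then become CD4 cells and those selected on MHC class I become CD8 cells. Gata3, a zinc finger factor, and Tox, a high-mobility-group factor, act early in this step and are needed for CD4 cells to form. Zbtb7b encodes ThPOK, a zinc finger repressor that sets the CD4 fate and holds back Runx3. Runx3, a Runt-domain factor, sets the CD8 fate and silences Zbtb7b and Cd4. Id2 binds E proteins and keeps them from DNA, and E proteins help to hold thymocytes at the double-positive stage. CD69hi cells can include cells on the way to either fate, and the arrays give 1 ratio for all of them.

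Zbtb7b and Runx3, whose products oppose each other, each have 2 starts in the RefSeq promoter table (GRCm38.p6). The 250 bases before each start are shown because the probes do not tell which start was used. Capitals mark the RUNX motif TGTGGT or its reverse complement ACCACA, searched on both strands. Each line is written 5′ to 3′ on the gene's strand, which is the minus strand for Zbtb7b and the plus strand for Runx3.
Zbtb7b upstream start, chr3:89393379-89393628: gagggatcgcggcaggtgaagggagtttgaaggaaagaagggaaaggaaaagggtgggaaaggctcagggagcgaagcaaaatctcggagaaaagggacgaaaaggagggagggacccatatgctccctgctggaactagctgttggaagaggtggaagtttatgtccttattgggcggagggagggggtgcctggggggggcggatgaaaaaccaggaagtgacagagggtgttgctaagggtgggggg
Zbtb7b downstream start, chr3:89387672-89387921: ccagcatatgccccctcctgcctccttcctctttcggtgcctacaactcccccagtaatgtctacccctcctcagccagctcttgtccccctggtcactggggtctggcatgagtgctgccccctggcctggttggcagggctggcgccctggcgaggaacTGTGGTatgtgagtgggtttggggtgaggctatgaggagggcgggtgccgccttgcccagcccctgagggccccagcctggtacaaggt
Runx3 upstream start, chr4:135120395-135120644: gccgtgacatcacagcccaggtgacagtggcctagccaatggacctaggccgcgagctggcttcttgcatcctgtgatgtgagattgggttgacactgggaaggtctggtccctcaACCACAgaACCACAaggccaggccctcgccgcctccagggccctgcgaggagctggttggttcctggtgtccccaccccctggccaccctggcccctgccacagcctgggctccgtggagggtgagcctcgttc
Runx3 downstream start, chr4:135152295-135152544: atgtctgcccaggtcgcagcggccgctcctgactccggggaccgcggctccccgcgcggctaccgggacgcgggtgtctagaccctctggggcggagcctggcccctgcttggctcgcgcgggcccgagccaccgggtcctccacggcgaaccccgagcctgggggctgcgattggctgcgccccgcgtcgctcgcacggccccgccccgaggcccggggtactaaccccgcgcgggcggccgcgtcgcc
The downstream Zbtb7b window held 1 RUNX match, and its upstream window held 0. The upstream Runx3 window held 2 matches and the downstream one 0. Of all 32851 windows of this length, 14.0% held a match. Id2 and Gata3, with 1 start each, had 0 RUNX matches. The E-box CANNTG, the motif of the E proteins that Id2 binds, occurred 1 time in the downstream Zbtb7b window, 2 times in the upstream one, 1 time in the upstream Runx3 window and 1 time in the Id2 window, and 66.2% of all windows held it. The GATA motif AGATAA, searched on both strands, had 0 matches in these 6 windows, against 9.99% of all windows. These are letter matches and do not show binding. Tox was not among the genes with a window.

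Ratios are given as log2 of CD69hi over Zap70-/-, after a change of sign on arrays 1 and 2. Neither the log base nor the direction of the deposited ratios is stated in the labels. They were taken as log2, and with natural logarithms every fold would be larger. The direction is likely rather than stated. It was set by Rag1, a recombinase gene of immature thymocytes, with a log2 ratio of -1.19 ± 0.36 (SD, n = 3). Read the other way, all ratios would change sign. Deposited ratios of array 3 correlated with those of arrays 1 and 2 at r = -0.25 and -0.40 across all probes (0.61 between arrays 1 and 2), which describes the arrays, since probes are not independent replicates.

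In this reading 4 of the 5 lineage factors, Zbtb7b, Id2, Tox and Gata3, were called higher in CD69hi RNA by limma (Benjamini-Hochberg adjusted p over 8905 features up to 0.05), and Runx3 did not pass. Of all features, 6.94% were called, 4.13% higher and 2.81% lower. The same 4 genes were at least 2-fold higher on every array, as were 1.89% of all features. Runx3 lay above 0 on every array, as did 24.3% of features. The genes were picked with earlier results of these arrays known, so this count is a description of them. With array 3 left unturned, 0 of the 5 passed and 0 of all features did.

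Zbtb7b had log2 ratios of 2.52, 3.32 and 3.67 on arrays 1, 2 and 3, as the mean of its 2 probes. All 3 arrays placed it more than 5-fold higher in CD69hi RNA, with the lowest value on array 1. The mean was 3.17 ± 0.59 (SD, n = 3), a 9.0-fold difference with a limma 95% interval from 5.69-fold to 14.2-fold (adjusted p = 0.010). It ranked 18th of all 8905 features by mean ratio.

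The 2 Zbtb7b probes differed on array 1. Probe 1 read 1.67, 3.43 and 3.76 on the 3 arrays, and probe 2 read 3.37, 3.21 and 3.58. Their gap was 1.70 on array 1, against 0.22 on array 2 and 0.19 on array 3. Among 631 genes with more than 1 probe, 21 (3.33%) had a gap at least as large on array 1, where the median gap was 0.34. Fitted alone, probe 1 gave 2.95 ± 1.13 (SD, n = 3, limma adjusted p = 0.034) and probe 2 gave 3.39 ± 0.18 (adjusted p = 0.0052), so the low value of array 1 for the gene came from probe 1. Both probes passed, and 6.61% of the 9596 probes did.

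Id2, the E protein inhibitor, had log2 ratios of 2.34, 2.96 and 3.14 on arrays 1 to 3. Like the mean of the 2 Zbtb7b probes, it was lowest on array 1 and highest on array 3, but Zbtb7b probe 2 alone was lowest on array 2 (3.21). Its mean was 2.81 ± 0.42 (SD, n = 3), or 7.03-fold with a 95% interval from 4.91-fold to 10.1-fold (limma adjusted p = 0.0090), and it ranked 31st.

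Tox had log2 ratios of 2.63, 2.82 and 2.51, the narrowest range among the 3 genes with the largest ratios. Its mean was 2.65 ± 0.16 (SD, n = 3), a 6.29-fold difference with an interval from 4.91-fold to 8.05-fold (limma adjusted p = 0.0051), and it ranked 42nd. Here array 3 gave the lowest value, unlike Zbtb7b and Id2.

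Gata3 was the least variable of the 5, with 1.50, 1.66 and 1.67 on arrays 1 to 3. The mean of 1.61 ± 0.10 (SD, n = 3) is a 3.05-fold difference, with an interval from 2.42-fold to 3.84-fold (limma adjusted p = 0.010, rank 137). Without array 2 its ratio was 1.58 and it did not pass (adjusted p = 0.052).

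Runx3, the CD8-lineage factor, had log2 ratios of 0.52, 0.85 and 0.18. All 3 were above 0, and the highest of them lay below the lowest value of each other lineage factor. The mean of 0.52 ± 0.33 (SD, n = 3) is 1.43-fold, with an interval from 1.04-fold to 1.96-fold before any adjustment. The unadjusted p was 0.034 and the adjusted p 0.17 (limma), so Runx3 did not pass. This does not show that it was unchanged. It ranked 867th by mean ratio, and its rank ran from 546 on array 2 to 3196 on array 3. Under array weights, which counted array 2 most and array 3 least, its ratio was 0.77 and it passed (adjusted p = 0.0055), in a fit that called 41.1% of all features.

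**Figure D1:**
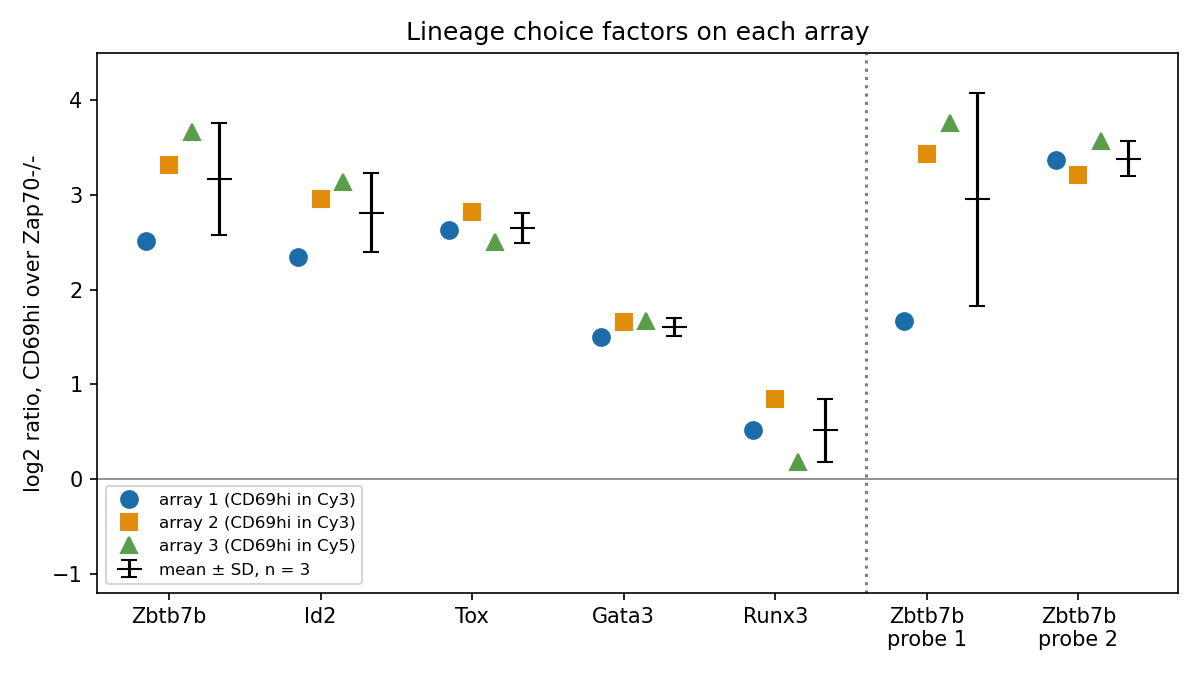
Log2 ratio of CD69hi over Zap70-/- RNA (vertical axis) for the 5 genes and for the 2 Zbtb7b probes apart; coloured points are arrays 1 to 3, black bars the mean ± SD (n = 3). The lowest value of the 4 called genes is 1.50 (Gata3 on array 1), the highest of Runx3 is 0.85, and the Zbtb7b probes part on array 1 (1.67 for probe 1 and 3.37 for probe 2).

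Ordered by mean ratio, the genes ran Zbtb7b, Id2, Tox, Gata3, Runx3. Each difference between members was taken within an array, which compares ratios and not transcript levels. With 3 arrays an exact sign-flip permutation test (two-sided) cannot go below p = 0.25, so none of the 7 differences between genes could pass. The mean of the 2 Zbtb7b probes exceeded Id2 by 0.36 ± 0.18 on the log2 scale (SD, n = 3), on all 3 arrays. This order did not hold for each probe: probe 1 minus Id2 was -0.68, 0.47 and 0.63 on the 3 arrays (0.14 ± 0.71), and probe 2 minus Id2 was 1.03, 0.25 and 0.44 (0.57 ± 0.41). Id2 and Tox did not differ beyond their spread, with 0.16 ± 0.46 and opposite signs on array 1 (-0.29) and array 3 (0.63). Without array 3 their order turned (-0.07).

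A larger step separated Tox from Gata3, at 1.13, 1.17 and 0.84 on the 3 arrays (1.05 ± 0.18, SD, n = 3). The step between Gata3 and Runx3 was 0.98, 0.81 and 1.49 (1.09 ± 0.35). Zbtb7b exceeded Runx3 by 2.65 ± 0.76, Id2 did by 2.30 ± 0.59 and Tox by 2.14 ± 0.17, each on 3 of 3 arrays. In folds, the CD69hi enrichment of Zbtb7b was 6.29 times that of Runx3, that of Gata3 2.13 times and that of Tox 4.40 times.

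**Figure D2:**
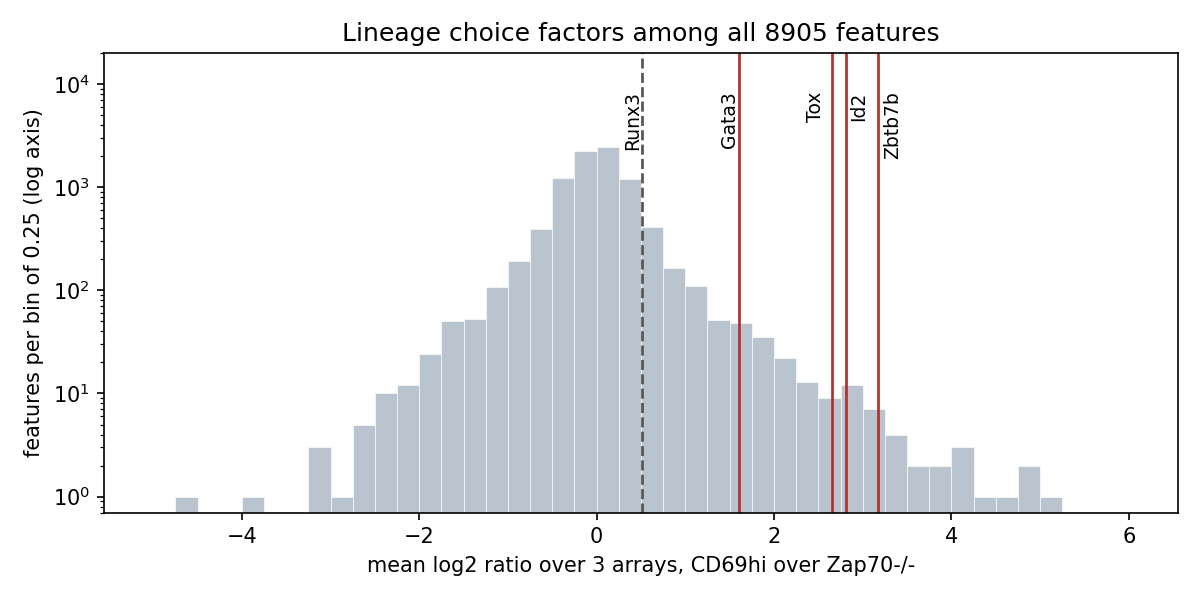
Number of features (logarithmic vertical axis) by mean log2 ratio over 3 arrays in bins of 0.25, with vertical lines at the 5 genes (solid where the adjusted p was at most 0.05, dashed for Runx3). Zbtb7b, Id2 and Tox lie in the thin upper tail at ranks 18, 31 and 42 of 8905, Gata3 at rank 137 and Runx3 at rank 867.

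Dye orientation was unevenly shared, with 2 arrays carrying CD69hi RNA in Cy3 and 1 in Cy5. Array 3 minus the mean of arrays 1 and 2 was 0.75 for Zbtb7b, 0.48 for Id2, 0.09 for Gata3, -0.22 for Tox and -0.50 for Runx3. Over all features the median absolute gap was 0.37. The gap had no single sign among the members, and a dye effect and the difference of 1 array cannot be told apart in it. For Zbtb7b the gap takes in the low value of probe 1 on array 1. That probe read 1.67 on array 1 and 3.43 on array 2, which share a dye orientation, and probe 2 read 3.37 and 3.21. With a dye term in the fit the ratios of the 4 called genes were 3.29 for Zbtb7b, 2.89 for Id2, 2.62 for Tox and 1.62 for Gata3, and all 4 passed, while Runx3 (0.43, adjusted p = 0.096) did not. That fit called 12.1% of all features. Array 3 was alone in its dye orientation, so the residual spread in that fit came only from arrays 1 and 2.

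Marker genes of cells other than developing T cells also had unequal ratios. Beside the marker counts that follow, 4.13% of all features were called higher and 2.81% lower. Of 18 measured macrophage and dendritic cell markers, 13 were higher in CD69hi RNA and 0 lower. Log2 ratios of the 18 ran from 0.04 to 3.07 (median 1.64). The higher calls numbered 10 without array 1, 9 without array 2 and 13 without array 3. These markers were led by Ccl22, a chemokine of dendritic cells (3.07), the lysozyme gene Lyz2 (2.51), the lipoprotein gene Apoe (2.46) and the MHC class II gene H2-Aa (2.39). Dendritic cells are known to express Id2, and innate lymphocytes are known to express Id2, Tox and Gata3. Of 10 innate lymphocyte markers, 2 were higher, the receptor genes Il2rb (1.82 ± 0.76, SD, n = 3) and Klrk1 (0.91 ± 0.13), and 1 lower, the granzyme gene Gzma (-2.29 ± 0.94). Klrk1 and Gzma lost their calls when array 1 or 2 was left out (limma adjusted p from 0.087 to 0.19), and Il2rb when array 2 or 3 was (0.13 and 0.089). Gzma also lost it with scaling (adjusted p = 0.052), which left 0 lower, and Il2rb when the fit held a dye term (limma adjusted p = 0.051). Over all its members the median was 0.60, and the innate lymphocyte factor Zbtb16, named after its value was seen, had -0.09 ± 0.35. What part these cells had in the ratios of the lineage factors was not tested.

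Of 7 thymocyte markers, 0 were called (limma adjusted p at most 0.05, and 1, Cd8a, had an unadjusted p of at most 0.05), with a median of -0.21 and a range from -1.13 (Cd8a) to 0.06. The arrays give ratios and no levels, so the presence of these markers could not be checked. Among other cells, 1 of 9 granulocyte markers was lower, the calcium-binding protein gene S100a8 (-0.86 ± 0.27), and 0 were higher (list median -0.86). S100a9 (-1.98 ± 1.17), Ngp (-1.63 ± 1.07) and Camp (-1.14 ± 0.55), named after their values were seen, also had means below 0 and did not pass. S100a8 lost its call whichever array was left out (limma adjusted p = 0.18, 0.35 and 0.052 for arrays 1, 2 and 3) and with scaling (0.065), so the list held 0 lower calls without array 1, without array 2 or with scaling. It held 4 without array 3, among them S100a9, Ngp and Camp (limma adjusted p from 0.026 to 0.038), and 5 with a dye term. Those fits also called more of all features lower, 409 without array 3 and 514 with a dye term, against 250 with neither change. B cell, erythroid and stromal lists had 0 of 6, 0 of 4 and 0 of 9 markers called. Their medians were 0.22, -0.01 and -0.06. The genes with the largest moderated t in them were Cd79a (1.40 ± 0.70) and Ms4a1 (0.41 ± 0.19) of B cells, Alas2 (0.53 ± 0.21) and Epor (-0.60 ± 0.52) of erythroid cells, and Epcam (-0.95 ± 0.60) and Col1a2 (-0.48 ± 0.22) of stroma. With a dye term Epcam, Col1a2 and Epor passed (limma adjusted p from 0.035 to 0.049), Epcam also did without array 3 (adjusted p = 0.029), and 1 B cell gene was higher when features with extreme ratios were left out. At an unadjusted p of at most 0.05 these 3 lists held 2, 1 and 2 genes (limma).

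Among 26 measured relatives and binding partners of the 5 factors, 1 (3.85%) was higher and 2 (7.69%) were lower in CD69hi RNA, with a median of 0.04 (0.01 over all features). Of all features, 4.13% were called higher and 2.81% lower, and no list was tested as a set. Id3, the other Id protein of thymocytes, had log2 ratios of 1.22, 1.47 and 1.82 on arrays 1 to 3. It rose with Id2, by 1.50 ± 0.31 (SD, n = 3, limma adjusted p = 0.020). Runx1, the Runt-domain factor of immature thymocytes, had -0.87, -0.70 and -0.76. Its mean of -0.78 ± 0.09 passed (adjusted p = 0.039), and it had the opposite sign to Runx3 on every array. Patz1, which encodes MAZR, a zinc finger protein that restrains Zbtb7b in cells selected on MHC class I, fell (-0.84 ± 0.18, adjusted p = 0.041).

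Most other relatives lay nearer to 0, but Cbfa2t3 (-0.89 ± 0.88), Zbtb18 (-0.83 ± 0.26) and Gata2 (-0.81 ± 1.53) had lower means than Runx1 and did not pass. Zbtb18 (limma adjusted p = 0.052) passed without array 3 (0.037). Cbfb, the shared partner of the Runx proteins, had 0.08 ± 0.09, Zbtb7a, the closest relative of Zbtb7b on the arrays, 0.09 ± 0.13, and Tox4 0.14 ± 0.13 (SD, n = 3). These 6 were named after their values were seen, and 0 passed with all arrays. Id3 missed the threshold when array 2 was left out (limma adjusted p = 0.072), Runx1 when any array was (adjusted p = 0.21, 0.27 and 0.051 for arrays 1, 2 and 3) and Patz1 when array 1 or 2 was (adjusted p = 0.17 and 0.33) or when the arrays were scaled (adjusted p = 0.054). With a dye term 4 relatives were lower, in a fit that called 514 of all features lower, against 250 without that term. Spotted probes can bind transcripts of related genes, which was not tested for Runx1 and Runx3 or for Id2 and Id3.

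Factors known to act upstream of the CD4 or CD8 choice, and their cofactors, split by direction. Of 24 measured, 4 (16.7%) were higher, 3 (12.5%) lower and 17 did not pass (median -0.20). Of all features, 4.13% were higher and 2.81% lower. Egr3 (1.67 ± 0.35, SD, n = 3) and Nfatc1 (1.57 ± 0.21), TCR-induced transcription factor genes, and Lef1 (1.16 ± 0.17), a partner of β-catenin that promotes Zbtb7b expression, rose. Nfatc3, an NFAT gene expressed in double-positive cells, fell (-1.53 ± 0.23). The other 3 calls were the co-repressor Tle4 (0.92 ± 0.17), Myb (-0.99 ± 0.07), which supports Gata3 expression in thymocytes, and Patz1. Tle4 and Myb were named after their values were seen. Patz1 is also in the list of relatives, so its lower call is counted in both lists.

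Tcf3, which encodes the E proteins that Id2 and Id3 bind, had -0.40 ± 0.19 and did not pass (limma adjusted p = 0.19). It was named after its value was seen. Of the 7 called genes, Nfatc1 lost its call when array 2 was left out, Egr3 when array 2 or 3 was, Lef1, Nfatc3, Myb and Patz1 when array 1 or 2 was, and Tle4 whichever was (limma adjusted p from 0.050 to 0.33). Without array 2, 0 of these 24 genes were called higher and 0 lower, and without array 1 the counts were 2 and 0. Without array 3 they were 2 and 4.

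Of 9 measured genes listed for the CD4 lineage, 2 (22.2%) were higher, 0 lower and 7 did not pass (median 0.31). Of all features, 4.13% were higher and 2.81% lower. The surface antigen gene Ly6c1 rose by 1.76 ± 0.15 (SD, n = 3, limma adjusted p = 0.010) and Igfbp4, which encodes an IGF-binding protein of naive CD4 cells, by 1.71 ± 0.24 (adjusted p = 0.012). With array 2 left out, Igfbp4 missed the threshold (adjusted p = 0.053), and 1 gene of the list, Ly6c1, was called higher. Ly6c1 belongs to a family of near-identical genes, so its value is uncertain. It is also not particular to CD4 cells. What part other cells had in the ratios of these 2 genes was not tested. Cd4 itself, at -0.35, -0.31 and -0.22 on arrays 1 to 3, did not pass (-0.29 ± 0.07, adjusted p = 0.25).

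Of 11 CD8-lineage genes, 4 (36.4%) were higher, 1 (9.09%) lower and 6 did not pass (median 0.63), against 4.13% and 2.81% of all features. This list shares many members with the innate lymphocyte list, among them Il2rb and Gzma, so the 2 counts are not separate. Il2rb, the interleukin-2 and interleukin-15 receptor chain, rose with a log2 ratio of 1.82 ± 0.76, the chemokine gene Xcl1 with 1.31 ± 0.25 and the integrin gene Itgae, a Runx3 target in CD8 cells, with 1.29 ± 0.32 (SD, n = 3). The fourth was the chemokine gene Ccl5 (1.05 ± 0.24), named after its value was seen. Gzma fell, but not with scaling (limma adjusted p = 0.052), and Cd8a had -1.70, -1.24 and -0.47 on arrays 1 to 3 without passing (-1.13 ± 0.62, limma adjusted p = 0.081). Cd8a passed when array 3 was left out (-1.47, adjusted p = 0.043) or a dye term was fitted (-0.97, adjusted p = 0.048). Innate lymphocytes also express Il2rb, Xcl1, Itgae, Ccl5 and Gzma, whose part was not tested. Xcl1 lost its call when array 2 was left out, Il2rb and Itgae when array 2 or 3 was, and Ccl5 and Gzma when array 1 or 2 was (limma adjusted p from 0.055 to 0.21). The 4 higher calls became 3 without array 1, 0 without array 2 and 2 without array 3.

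Cytokines that signal through the γ chain promote Runx3 expression and the CD8 fate. Of 10 measured cytokine signalling genes listed for this fate, 3 were higher, 1 lower and 6 did not pass (median 0.31). The shares over all features were 4.13% higher and 2.81% lower. Il7r, the interleukin-7 receptor, had the largest ratio, at 2.60, 3.01 and 2.68 on arrays 1 to 3 (2.76 ± 0.22, SD, n = 3, limma adjusted p = 0.0057). The transforming growth factor-β receptor Tgfbr2 (1.15 ± 0.35) and the STAT5 target Cish (0.97 ± 0.18) rose as well, and the inhibitor of cytokine signalling Socs3 fell (-1.93 ± 0.20). Tgfbr2 missed the threshold whichever array was left out (adjusted p = 0.078, 0.20 and 0.068 for arrays 1, 2 and 3), and Cish did when array 1 or 2 was (adjusted p = 0.10 and 0.20). Tgfbr2 also missed it with a dye term (adjusted p = 0.055).

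Genes of E proteins and the double-positive stage were lower in 3 of 9 cases and higher in 1, with 5 not passing (median -0.99). Of all features, 2.81% were lower and 4.13% higher. What part Id2 had in these ratios was not tested. Notch3, a Notch receptor of immature thymocytes, fell by 1.67 on the log2 scale (SD 0.71, n = 3), Rag1 by 1.19 and the survival gene Bcl2l1 by 0.99. Rag1 set the direction of the ratios, which makes the list no separate evidence for that direction. Rora, a retinoid-related nuclear receptor, rose (1.12 ± 0.34), but missed the threshold whichever array was left out (limma adjusted p = 0.12, 0.21 and 0.051 for arrays 1, 2 and 3). Rag1 and Bcl2l1 missed it when array 1 or 2 was left out, and Notch3 when array 2 or 3 was (adjusted p from 0.097 to 0.20). Scaling ended the calls of Rora and Notch3 (limma adjusted p = 0.052 and 0.058), which left 0 higher and 2 lower, and a dye term ended that of Notch3 (adjusted p = 0.074). The lower calls numbered 1 without array 1, 0 without array 2 and 3 without array 3.

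**Figure D3:**
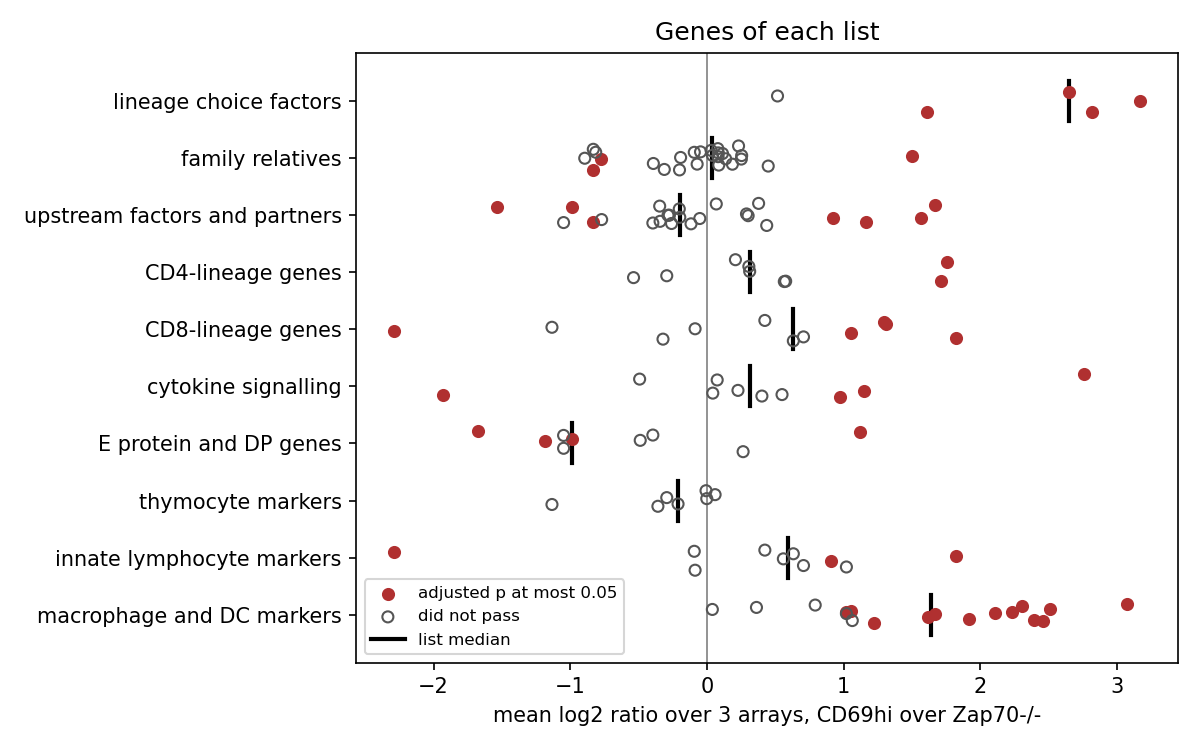
Mean log2 ratio of CD69hi over Zap70-/- (horizontal axis) for each measured gene of 10 lists (rows); filled points passed at an adjusted p of at most 0.05, open points did not, and black bars are list medians. The lineage choice factors have a median of 2.65, their family relatives one of 0.04, and the macrophage and dendritic cell markers one of 1.64.

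For each lineage factor the genes with the most similar values were found by Euclidean distance over the 3 ratios, among 6794 genes. Closest to Zbtb7b were the chemokine receptor gene Ccr7 (distance 0.28, with 2.79, 3.30 and 3.67 on arrays 1 to 3), the epoxide hydrolase gene Ephx1 (0.33) and the creatine kinase gene Ckb (0.51). Tox lay closest to Il7r (0.25), the macrophage gene Lyz2 (0.28) and the TCR-associated receptor gene Cd6 (0.32). Id2 lay closest to the Schlafen gene Slfn1 (0.21), the kinase gene Mapk11 (0.22) and the TNF receptor gene Tnfrsf9 (0.33). The genes near these 3 factors thus included genes of T cells and, for Tox, a myeloid gene.

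Gata3 had more close neighbours, with 35 genes within a distance of 0.5, against 2 for Zbtb7b, 9 for Id2 and 10 for Tox. Its nearest were the tetraspanin gene Cd82 (0.10), the Src kinase gene Fyn (0.11) and the TNF receptor gene Tnfrsf1b (0.11). Runx3, nearer to the bulk of genes, had 333 genes within that distance, and its nearest were D1Ertd471e (0.09), Sfmbt2 (0.09) and Zup1 (0.10). With 3 arrays, closeness here reflects mainly the mean ratio.

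**Figure D4:**
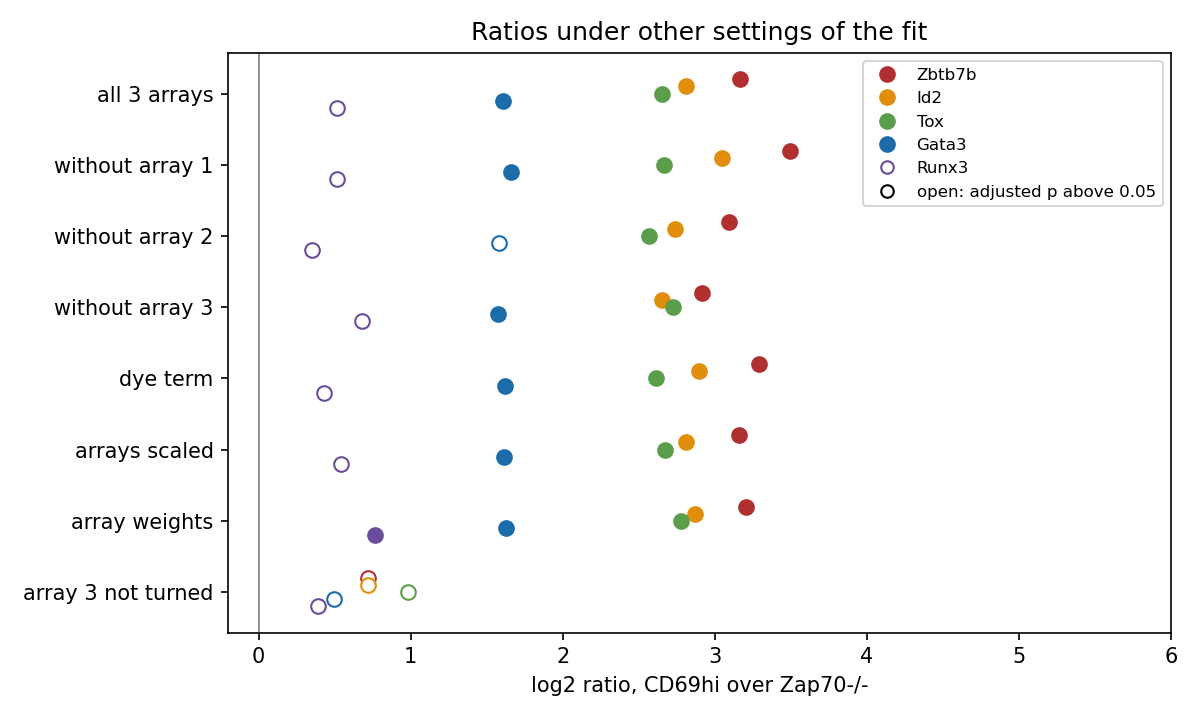
Log2 ratio of CD69hi over Zap70-/- (horizontal axis) for the 5 genes under all 3 arrays and 7 other settings of the fit (rows); filled points passed at an adjusted p of at most 0.05 and open points did not. Except where array 3 was left unturned, Zbtb7b, Id2 and Tox were called in every setting shown, Gata3 in all but the fit without array 2, and Runx3 only with array weights.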

How the data were processed

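The authors deposited 1 log ratio per probe and array, which was taken here as log2. Per the labels, the arrays were spotted 2-colour arrays of one print. Log base, background correction, spot filters and normalization were not given in the sources used here, and spot intensities were not used. Each array was centred near 0 (medians -0.004, -0.005 and -0.002). Values of arrays 1 and 2 were multiplied by -1. Of 9596 probes, 7486 had 1 symbol, 483 several and 1627 none in the platform annotation. Probes of 1 symbol were averaged, which gave 8905 features, 6795 of them genes. Ratios were tested against 0 with limma 3.58.1 (R 4.3.3), with moderated variances, and p-values adjusted by Benjamini-Hochberg over all features, with 0.05 as the threshold. The fit was run on simulated data without dye, array or probe effects, which says nothing about such effects here. Before turning, array 3 correlated with arrays 1 and 2 at only -0.25 and -0.40. These values alone do not settle the turning, which follows the labelled dyes.

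Members and 13 further gene lists were chosen with earlier results of these data known. Named genes are the 5 members, in each list up to 4 called genes with the largest absolute ratio (or the 2 with the largest moderated t), Cd4 and Cd8a, and the 3 genes nearest to each member. Others are marked as named after their values were seen. Promoter sequences are from RefSeq (GRCm38.p6). Alternatives left out each array, added a dye term, scaled, centred or weighted arrays, used robust shrinkage, fitted probes alone, left array 3 unturned, or dropped 76 features with an absolute ratio above 4.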

Additional observations from a re-analysis of the deposited data

How the results depend on the processing

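Across 10 settings with array 3 turned (11 for Zbtb7b, with its 2 probes counted apart), the log2 ratio ran from 2.92 to 3.49 for Zbtb7b, from 2.65 to 3.05 for Id2, from 2.57 to 2.78 for Tox, from 1.58 to 1.66 for Gata3 and from 0.35 to 0.77 for Runx3. Zbtb7b, Id2 and Tox passed in each. Gata3 missed in 1, without array 2 (ratios from 1.58 to 1.66 over the fits that left out 1 array), and Runx3 passed in 1, with array weights (0.77). With array 3 unturned, no member passed: Zbtb7b 0.72, Id2 0.72, Tox 0.98, Gata3 0.49 and Runx3 0.39. That setting called 0 features, 0 higher and 0 lower. Calls over all features were 618 (368 higher, 250 lower) and ran from 119 to 692 with 1 array left out (95 to 283 higher, 24 to 409 lower), with fewer residual degrees of freedom. They were 1076 with a dye term (562 higher, 514 lower) and 3657 with array weights (1826 higher, 1831 lower). The fit with a dye term also had fewer residual degrees of freedom. The difference of Id2 minus Tox ran from -0.073 to 0.39 with 1 array left out. With array 3 unturned the differences were -0.00017 for Zbtb7b minus Id2, -0.26 for Id2 minus Tox, 0.49 for Tox minus Gata3, 0.10 for Gata3 minus Runx3, 0.33 for Zbtb7b minus Runx3, 0.33 for Id2 minus Runx3 and 0.59 for Tox minus Runx3, and Col1a2 (0.011) and Epor (0.20) turned sign. The cause was not tested where none is named. Of 27 called list genes named by rule, members aside, 7 passed in all 3 fits that left out an array. Each ratio already pairs the RNAs of its array. No paired analysis was possible because there is no further replicate number to block on, with the arrays in 1 group. Without spot intensities, dim spots could not be left out.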
